A study of Danio rerio with 19 samples.

Results

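Translation factors are the proteins that carry ribosomes through the start and the elongation steps of protein synthesis. They were defined here as genes whose symbol begins with eif1 to eif6 or with eef1 or eef2, which gave 77 of the 24886 genes listed in all 3 count tables, 73 of them with enough reads to be tested. RNA was sequenced from whole zebrafish larvae in 19 samples. Atorvastatin (AVS), a statin that inhibits HMG-CoA reductase, was given at 1000 ng/L (AVS high, 4 libraries) or at 100 ng/L (AVS low, 4 libraries). Afidopyropen (Afid), an insecticide, was given at 1000 ng/L (Afid high, 4 libraries) or at 100 ng/L (Afid low, 3 libraries), and control larvae (4 libraries) were held in a medium that the labels call ERM, with neither compound. The design text says that 4 of 5 replicates were sequenced. Neither the strain and age of the larvae, nor whether a library came from 1 larva or a pool, is given in the sources used here. Counts per library were analysed for AVS high, AVS low, Afid low and control, 15 libraries in all, and Afid high is described from the authors' deposited fold changes only.

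During initiation, eIF2 carries the initiator tRNA to the small ribosomal subunit, eIF3 serves as a scaffold there, and the eIF4 group binds the mRNA cap and unwinds the leader until eIF1, eIF1A and eIF5 settle the start codon. During elongation, eEF1A delivers aminoacyl-tRNA to the ribosome, the eEF1B complex recharges eEF1A with GTP, and eEF2 moves the ribosome along by a codon. Cells slow initiation in stress by eIF2 kinases, which phosphorylate eIF2 alpha, and by 4E-BP proteins, which hold eIF4E away from eIF4G. Many genes of this machinery, elongation factors above all, belong with the ribosomal proteins to the mRNAs whose translation mTORC1 controls through a pyrimidine tract at their start.

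The 15 libraries held 8.63 to 18.6 M reads in genes. Replicates were distinct libraries: the counts of the most similar of 21 replicate pairs gave a chi-square of 7.76 per degree of freedom. The labels do not say that replicates are separate tanks or clutches, so a p-value here is judged against library-to-library spread alone, part of which may be technical. Larvae were sequenced whole, so fewer cells of a type and less RNA per cell cannot be told apart. The share of reads in ribosomal protein genes ran from 5.76% in AVS low replicate 5 to 12.3% in control replicate 4. Levels below are read counts scaled for library depth (CPM, per M reads) on 1 scale for the 15 libraries, after trimmed-mean (TMM) scaling, and levels of different genes are compared only as CPM per kilobase (kb) of the deposited gene length.

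The elongation factors stood far above the other translation factors. Over the 15 libraries eef2b, the main eEF2 gene (ENSDARG00000100371, chromosome 2, 57149002 to 57174954), had the highest level of all members, 3923 CPM per kb, which placed it 10th of all genes. Next came eef1a1l1, an eEF1A gene (ENSDARG00000020850, chromosome 19, 43119014 to 43137740), at 2750 CPM per kb and 18th of all genes. The third was eef1g (ENSDARG00000056119, chromosome 14, 26719691 to 26729289), the gamma subunit of the eEF1B complex, at 1795 CPM per kb and 39th of all genes. The fourth was eif5a (ENSDARG00000017235, chromosome 24, 26481300 to 26485345), at 652 CPM per kb and 109th; its protein carries the amino acid hypusine and helps ribosomes past difficult peptide bonds. In reads, eef1a1l1 took 36.8% and eef2b 25.6% of all reads that fell in members, so the order of these 2 genes depends on the deposited gene length. The genome build of these coordinates is not given in the sources used here.

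For eEF1A, eEF2 and eIF5A 1 gene held nearly all of the family's level per kb. The eEF1B genes encode different subunits of a complex, and eef1g was the highest of them. For eEF1A, eef1a1l1 made up 98.2% of the family's CPM per kb, while eef1a1a stood at 44.3, eef1a1b at 5.75 and eef1a2 at 0.551 CPM per kb. For eEF2, eef2b made up 94.2%, eef2l2 stood at 241 CPM per kb and the neighbouring genes eef2a.1 and eef2a.2 on chromosome 22 at 0.532 and 0.0568 CPM per kb. Of the eEF1B genes taken with eef1e1, a part of the multisynthetase complex, eef1g made up 85.2%. The others were eef1db at 150, eef1da at 86.3, eef1b2 at 68.2 and eef1e1 at 6.72 CPM per kb. For eIF5A, eif5a made up 92.0% and eif5a2 stood at 56.4 CPM per kb. The rule for reads that match several near-identical paralogues is not given in the sources used here, so levels of the minor eEF1A and eEF2 genes are uncertain.

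**Figure D1:**
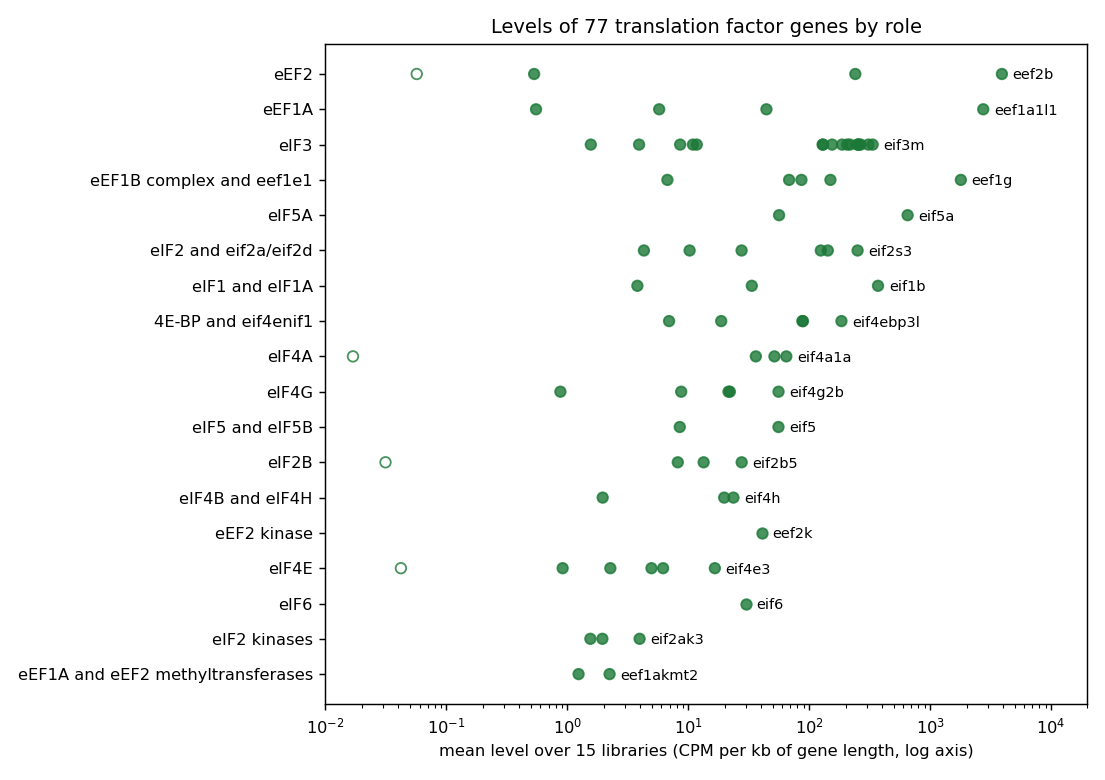
Mean level over 15 libraries of each of the 77 translation factor genes in CPM per kb of gene length (log axis), by role, with the highest gene of each role named. Filled circles are the 73 tested genes and open circles the 4 with too few reads; eef2b, eef1a1l1 and eef1g lie above 1000 CPM per kb, while the eIF2 kinases and the methyltransferases lie under 10.

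Initiation factors lay lower and closer together. The start codon factor eif1b had 371 CPM per kb, and its companions of the eIF1A family, eif1axb and eif1axa, had 33.5 and 3.8 CPM per kb. Of eIF2, the gamma subunit gene eif2s3 stood at 251, the alpha subunit gene eif2s1b at 143 and the beta subunit gene eif2s2 at 125 CPM per kb. A further alpha subunit gene, eif2s1a, stood at 10.3 CPM per kb. The eIF2B subunits, which recharge eIF2 with GTP, were lower again, with eif2b5 at 27.7, eif2b4 at 13.4 and eif2b3 at 8.19 CPM per kb.

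The 17 genes of eIF3 fell into 2 tiers. The upper tier of 12 genes lay between 129 CPM per kb (eif3k) and 335 CPM per kb (eif3m). The other 5 were eif3ja, eif3jb, eif3hb, eif3eb and eif3bb, at 11.8, 10.9, 8.57, 3.92 and 1.56 CPM per kb; eif3hb, eif3eb and eif3bb are paralogues of genes in the upper tier. The largest subunit, eif3s10 (eIF3a), varied little over the 15 libraries, with 873 ± 70.4 CPM (SD, n = 15) and a coefficient of variation of 8.06%.

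In the eIF4 group the helicase genes eif4a1a, eif4a2 and eif4a3, the last also a core part of the exon junction complex, stood at 64.7, 51.6 and 36.2 CPM per kb. The scaffold genes were led by eif4g2b, at 55.8 CPM per kb, with eif4g1a at 22.1. The cap-binding eIF4E genes were low, with eif4e3 at 16.6, eif4e2rs1 at 6.20, eif4e2 at 4.97, eif4ea at 2.27 and eif4eb at 0.915 CPM per kb. The genes of the 4E-BP family stood higher than these, with eif4ebp3l at 185, eif4ebp3 at 88.8, eif4ebp2 at 87.9 and eif4ebp1 at 18.7 CPM per kb. The eIF2 kinase genes were near the bottom, with eif2ak3 (PERK) at 3.96, eif2ak1 (HRI) at 1.95 and eif2ak2 (PKR) at 1.55 CPM per kb.

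Of the 77 members 4 did not reach the count filter. These were eef2a.2, eif2b2, eif4a1b and eif4e1b, with means of 2.33, 0.533, 0.533 and 1.93 reads per library and 0 reads in 4, 7, 9 and 8 of the 15 libraries. Of these, eif4e1b, known in vertebrates as an oocyte form of eIF4E, had 6, 9, 0 and 7 reads in the control libraries, and 3 reads or fewer in every other library. The tested members varied less than genes in general: the median coefficient of variation over the 15 libraries was 19.1% over the 73 members and 28.2% over all 20144 tested genes, whose median level was 9.85 CPM, against 88.3 CPM for the members.

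The share of a library's reads in members was higher in every AVS high library than in any control library. It was 4.45%, 4.74%, 4.83% and 5.02% in AVS high replicates 1 to 4, and 4.08%, 3.85%, 4.23% and 4.20% in control replicates 1 to 4. AVS low spanned 3.99% to 4.94% and Afid low 3.91% to 4.0%, and both overlapped the control. Most of the difference lay in the eEF1A and eEF2 genes. The eEF1A genes took 1.68% to 1.94% in AVS high and 1.41% to 1.58% in control. The eEF2 genes took 1.18% to 1.56% in AVS high and 0.905% to 1.13% in control. The eEF1B genes with eef1e1 overlapped, at 0.364% to 0.492% in AVS high and 0.348% to 0.474% in control. Elongation factors together took 3.25% to 3.86% in AVS high and 2.72% to 3.09% in control. Initiation factors, with the eIF5A genes counted among them, took 1.04% to 1.14% of reads in AVS high and 1.04% to 1.06% in control, and these ranges overlapped. Without the eIF5A genes the ranges were 0.873% to 0.951% and 0.872% to 0.894%, and overlapped too. The elongation and initiation shares both leave out the kinase and methyltransferase genes, the 4E-BP genes with eif4enif1, and eef1e1. The ribosomal protein share overlapped too, with 7.51% to 10.7% in AVS high and 7.68% to 12.3% in control. With mitochondrial genome and ribosomal protein reads left out of the total, the member share was 5.11% to 5.68% in AVS high and 4.52% to 5.05% in control, so the groups stayed apart. The erythrocyte marker score, the median over a list's genes of log2 CPM centred on the 15 libraries, also kept these groups apart, with 0.15 to 0.62 in AVS high and -0.74 to 0.07 in control, and its part in the member share was not tested. These are shares of raw reads, and with TMM scaling the AVS high and control ranges of eef1a1l1 and of eef2b overlapped.

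**Figure D2:**
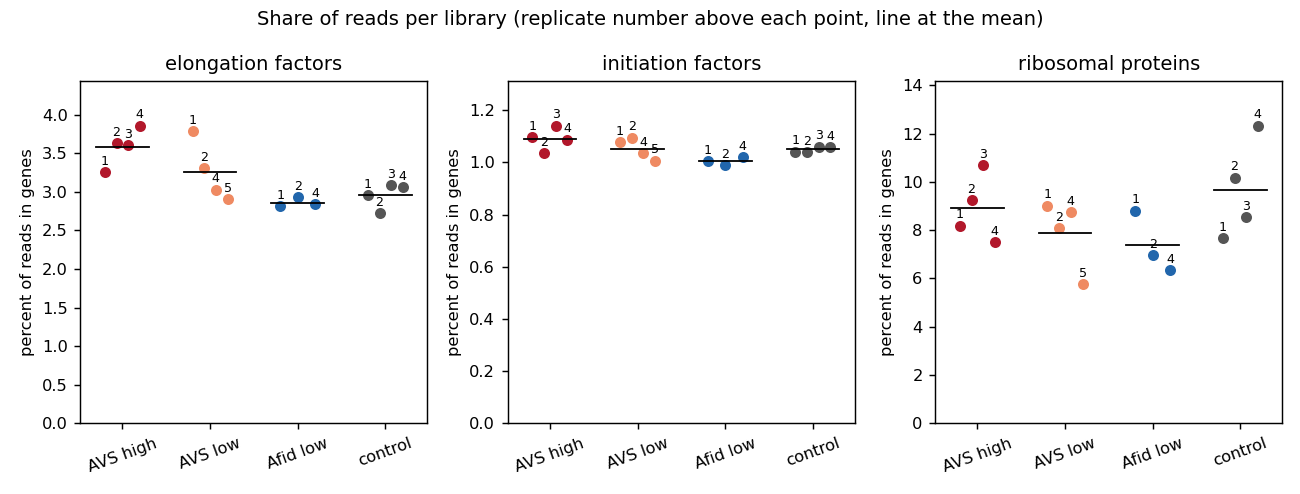
Percent of the reads in genes that fell in elongation factor members, initiation factor members and ribosomal protein genes, by library, with the replicate number above each point and a line at the group mean. The 4 AVS high libraries lie at 3.25% to 3.86% for elongation factors, above the control libraries at 2.72% to 3.09%, while both other panels overlap.

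No member passed the test at an adjusted p under 0.05 in any comparison. By edgeR's quasi-likelihood test 0 of 73 members were called in each of 4 comparisons, those of AVS high, AVS low or Afid low with control and that of AVS high with AVS low, and the background was 0% of all genes tested (18929, 19267, 19399 and 20144). DESeq2 also called 0 members, where its backgrounds were 0.329%, 0.213%, 0.0743% and 0.0201%, and limma-voom called 0 members. In the authors' deposited tables, which call 61, 43, 15 and 9 genes for AVS high, AVS low, Afid low and then Afid high (0.239%, 0.168%, 0.0584% and 0.0348% of the genes listed), 0 members are called. For Afid high 89.2% of the genes listed, 36 of the 77 members among them, have no usable adjusted p. Those genes could not be called, so the Afid high share and count cover few genes. The smallest adjusted p of a member in edgeR was 0.567 for AVS high, 0.464 for AVS low and 0.688 for Afid low against control, and 0.893 for AVS high against AVS low. All exposed groups were set against the same 4 control libraries, so their comparisons are not independent of each other. The values that follow are therefore descriptions of levels and fold changes.

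By their median, the members lay a little higher in AVS high and a little lower in AVS low and Afid low than in control. For AVS high against control the median log2 fold change over 73 members was 0.11, beside -0.0010 over all genes, with 48 members above 0 (background 49.8%) and 25 below 0 (background 50.2%). For AVS low against control the median was -0.09, beside -0.0084 over all genes, with 24 members above 0 (background 49.2%) and 49 below 0 (background 50.8%). The share of reads in members, in which eef1a1l1 and eef2b weigh most, went the other way there. Its mean was 4.39% in AVS low and 4.09% in control, with ranges that overlapped. For Afid low against control the median was -0.16, beside 0.0060 over all genes, with 23 members above 0 (background 50.8%) and 50 below 0 (background 49.2%). For AVS high against AVS low, which uses no control library as its baseline, the median was 0.21, beside 0.0087 over all genes, with 60 members above 0 (background 51.1%) and 13 below 0 (background 48.9%). The median standard error (SE) of a single member's fold change was 0.18, 0.20, 0.19 and 0.18 in the 4 comparisons, and the error of the medians themselves was not estimated. The AVS low median came to 0.0077 when control replicate 4 and AVS low replicate 5, the libraries with the highest and lowest ribosomal protein share, were left out together, a step chosen after seeing the data.

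**Figure D3:**
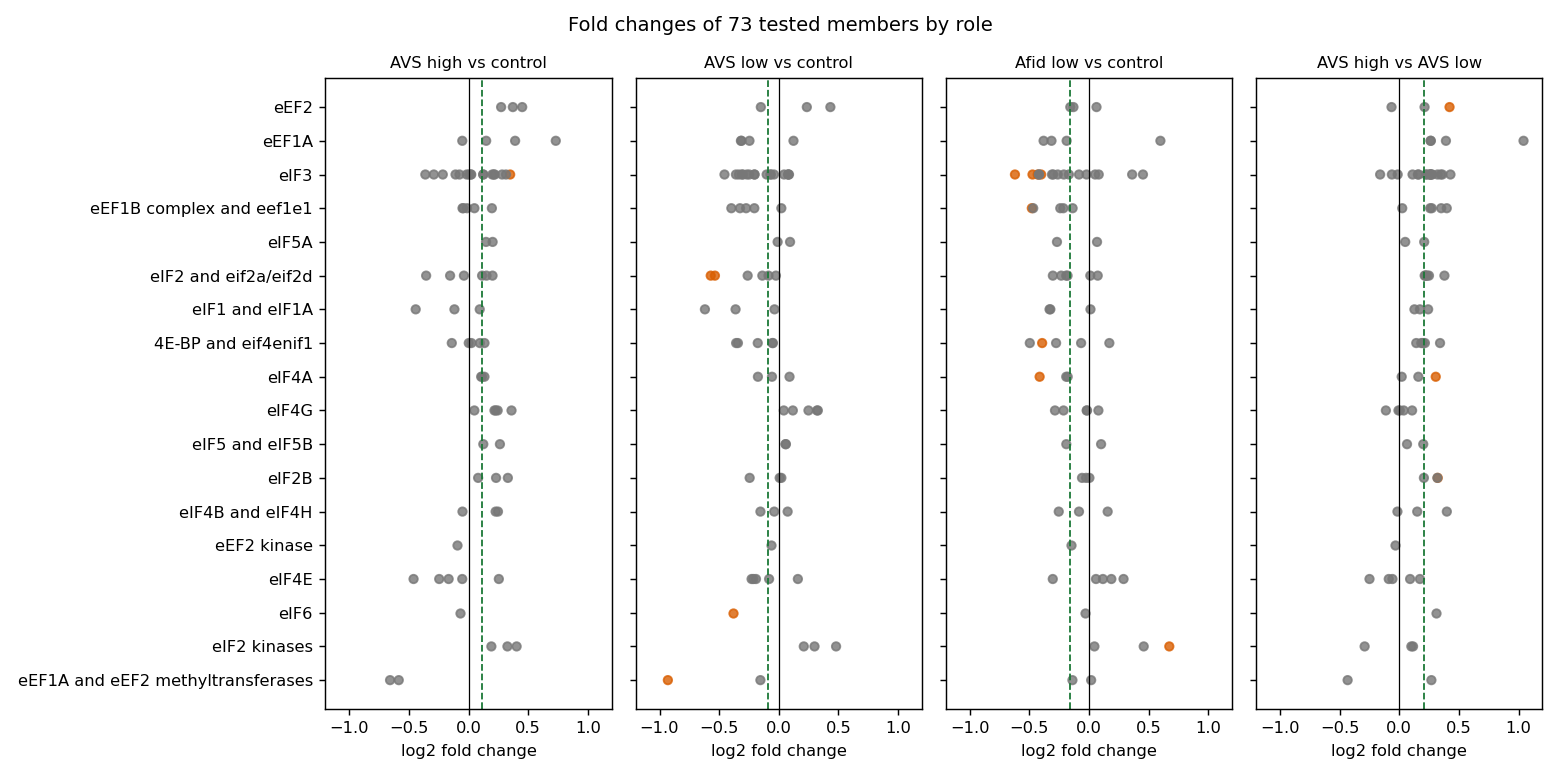
Log2 fold change by edgeR of the 73 tested members, by role, in the 4 comparisons, with a solid line at 0 and a dashed line at the member median. Orange points have an unadjusted p under 0.05 and none passed adjustment; the dashed line lies at 0.11 for AVS high, -0.09 for AVS low and -0.16 for Afid low against control, and at 0.21 for AVS high against AVS low.

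At an unadjusted p under 0.05 the members' share was above the background for lower values in Afid low (9.59%) and for higher values in AVS high against AVS low (4.11%), near it for lower values in AVS low (5.48%), and below it in the other directions. These counts varied when single libraries were left out. The share over all genes was not computed for those runs, so their counts cannot be read against the backgrounds given here. For AVS high against control 1 member was higher (background 3.37%) and 0 lower (background 5.39%). In either direction the background was 8.75%. Leaving out AVS high replicate 1 gave 7 such members and leaving out control replicate 4 gave 4, while leaving out AVS high replicate 2, 3 or 4 or control replicate 3 gave 0. For AVS low against control 0 members were higher (background 5.14%) and 4 lower (background 4.97%), beside 10.1% in either direction. The count was 9 without AVS low replicate 4, 2 without AVS low replicate 5 and 1 without control replicate 3. For Afid low against control 1 member was higher (background 3.59%) and 7 lower (background 3.46%), 8 in all (background 7.05%). That total was 2 without Afid low replicate 4, 4 without control replicate 4, and 5 without Afid low replicate 2 or control replicate 3. For AVS high against AVS low 3 members were higher (background 1.39%) and 0 lower (background 4.05%), beside 5.44% in either direction. The count was 17 with AVS low replicate 1 left out, 5 with AVS low replicate 4 or AVS high replicate 1 left out, 1 with AVS low replicate 2 left out and 0 with AVS low replicate 5 left out.

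Members whose groups did not overlap were most frequent in Afid low, where 15.1% lay wholly below control. Groups of fewer libraries stay apart more readily, and Afid low had 3 libraries where the other groups had 4. Its background was the highest too, so the shares are not comparable between comparisons without it. In AVS high against AVS low 4.11% of members lay wholly above. For AVS high against control 4 members lay wholly above (background 2.25%), namely eif2b3, eif3c, eif4g2b and eif5, and 0 wholly below (background 2.95%). For AVS low against control 1 member, eif4g2b, lay wholly above (background 2.12%) and 4 wholly below (background 2.27%). For Afid low against control 1 member, eif2ak1, lay wholly above (background 4.56%) and 11 wholly below (background 4.29%). For AVS high against AVS low 3 members lay wholly above (background 0.973%), namely eef1a1b, eef2l2 and eif2b4, and 0 wholly below (background 1.05%).

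Among the elongation factors, eef1a1l1 and eef2b lay higher on average in AVS high than in control, though both were highest in AVS low replicate 1. The delivery factor eef1a1l1 had 16819, 20204, 20226 and 20890 CPM in AVS high, against 13377, 13793, 15375 and 17154 CPM in control. In AVS high replicate 1 was the lowest, and it alone lay inside the control range, below control replicate 4. The log2 fold change of eef1a1l1 was 0.39 ± 0.21 (SE; unadjusted p = 0.0822, adjusted p = 0.608 by edgeR), and the authors' deposited table gives 0.40 with an unadjusted p of 0.0103 and an adjusted p of 0.296. AVS low had 21238, 16462, 14584 and 12760 CPM of eef1a1l1 in replicates 1, 2, 4 and 5, and Afid low had 13435, 13479 and 12063 CPM in replicates 1, 2 and 4. AVS low replicate 1 thus held the highest level of the 15 libraries and Afid low replicate 4 the lowest, and both groups overlapped the control, with log2 fold changes of 0.12 ± 0.26 and -0.19 ± 0.23 (SE).

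The translocation factor eef2b had 10942, 13337, 14122 and 15860 CPM in AVS high, against 9630, 8032, 10111 and 12009 CPM in control. Only AVS high replicate 1 lay within the control range, whose top was control replicate 4. The log2 fold change of eef2b was 0.45 ± 0.22 (SE; unadjusted p = 0.059, adjusted p = 0.584 by edgeR), beside 0.46 with an unadjusted p of 0.012 and an adjusted p of 0.313 in the authors' deposited table. In AVS low eef2b had 16501, 11953, 9032 and 9363 CPM in replicates 1, 2, 4 and 5, with replicate 1 the highest of the 15 libraries and replicates 4 and 5 inside the control range. In Afid low it had 8515, 9257 and 8772 CPM, all inside the control range, with a log2 fold change of -0.16 ± 0.23 (SE).

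A further eEF2 gene, eef2l2 (ENSDARG00000035256, chromosome 5, 41485277 to 41494831), had the smallest p of the members between the atorvastatin groups. It had 940, 1021, 1092 and 1064 CPM in AVS high, against 833, 708, 850 and 682 CPM in AVS low. Every AVS high library lay above every AVS low library, at a log2 fold change of 0.42 ± 0.16 (SE; unadjusted p = 0.0173, adjusted p = 0.893 by edgeR). Control libraries had 823, 953, 881 and 754 CPM of eef2l2 and overlapped both groups, and Afid low had 1109, 777 and 760 CPM, with replicate 1 the highest of the 15 libraries. The minor gene eef1a1b did not overlap between the atorvastatin groups either, with 13.9 to 16.3 CPM in AVS high and 9.13 to 13.3 CPM in AVS low (log2 fold change 0.39 ± 0.19, SE; adjusted p = 0.919 by edgeR).

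Most of the eEF1B genes taken with eef1e1 had fold changes below 0 in both low groups, 4 of 5 in AVS low and 5 of 5 in Afid low. The exception in AVS low was eef1e1, at 0.02. The delta subunit gene eef1db (ENSDARG00000030053, chromosome 20, 52546186 to 52582645) had 230, 253 and 213 CPM in Afid low, against 258, 347, 317 and 384 CPM in control. All 3 Afid low libraries were below all control libraries, though Afid low replicate 2 was close to control replicate 1, and the log2 fold change was -0.48 ± 0.18 (SE; unadjusted p = 0.0193, adjusted p = 0.688 by edgeR). In AVS low eef1db ran from 187 CPM in replicate 5 to 366 CPM in replicate 1 and overlapped the control (-0.27 ± 0.21, SE). The gamma subunit gene eef1g had log2 fold changes of 0.19 ± 0.22, -0.21 ± 0.23 and -0.22 ± 0.24 (SE) in AVS high, AVS low and Afid low against control. Its highest level was 4093 CPM, in AVS high replicate 3, and its lowest 1845 CPM, in AVS low replicate 5. All 5 genes of this group had fold changes below 0 in Afid low, from -0.48 (eef1db) to -0.14 (eef1e1), though under alternative settings eef1e1 rose above 0 there in 2 of 13. The beta subunit gene eef1b2 was at -0.47 ± 0.30 (SE) there, and at -0.11 without control replicate 4, the library with its highest level (719 CPM). In AVS high 2 of the 5 were above 0, and 3 of 5 with DESeq2, limma-voom or DESeq2's scaling in edgeR.

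The genes that modify elongation factors were scarce or steady. The gene eef1akmt2 (ENSDARG00000102144), which encodes a lysine methyltransferase of eEF1A, had 1.67, 2.00, 2.45 and 1.60 CPM in AVS low, against 2.63, 4.46, 5.00 and 2.69 CPM in control. The groups did not overlap, but the gap between AVS low replicate 4 and control replicate 1 was small beside the spread of the control. Its log2 fold change of -0.93 ± 0.35 (SE; unadjusted p = 0.0193, adjusted p = 0.464 by edgeR) was the lowest of the members in AVS low, and in AVS high it was -0.66 ± 0.36 (SE). The eEF2 methyltransferase gene eef2kmt, at 1.24 CPM per kb, had -0.59 ± 0.38 in AVS high and -0.15 ± 0.35 in AVS low (SE). The eEF2 kinase gene eef2k, whose product phosphorylates and slows eEF2, ran from 95.3 to 148 CPM over the 15 libraries, with fold changes of -0.09, -0.06 and -0.15 on the log2 scale in AVS high, AVS low and Afid low against control.

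**Figure D4:**
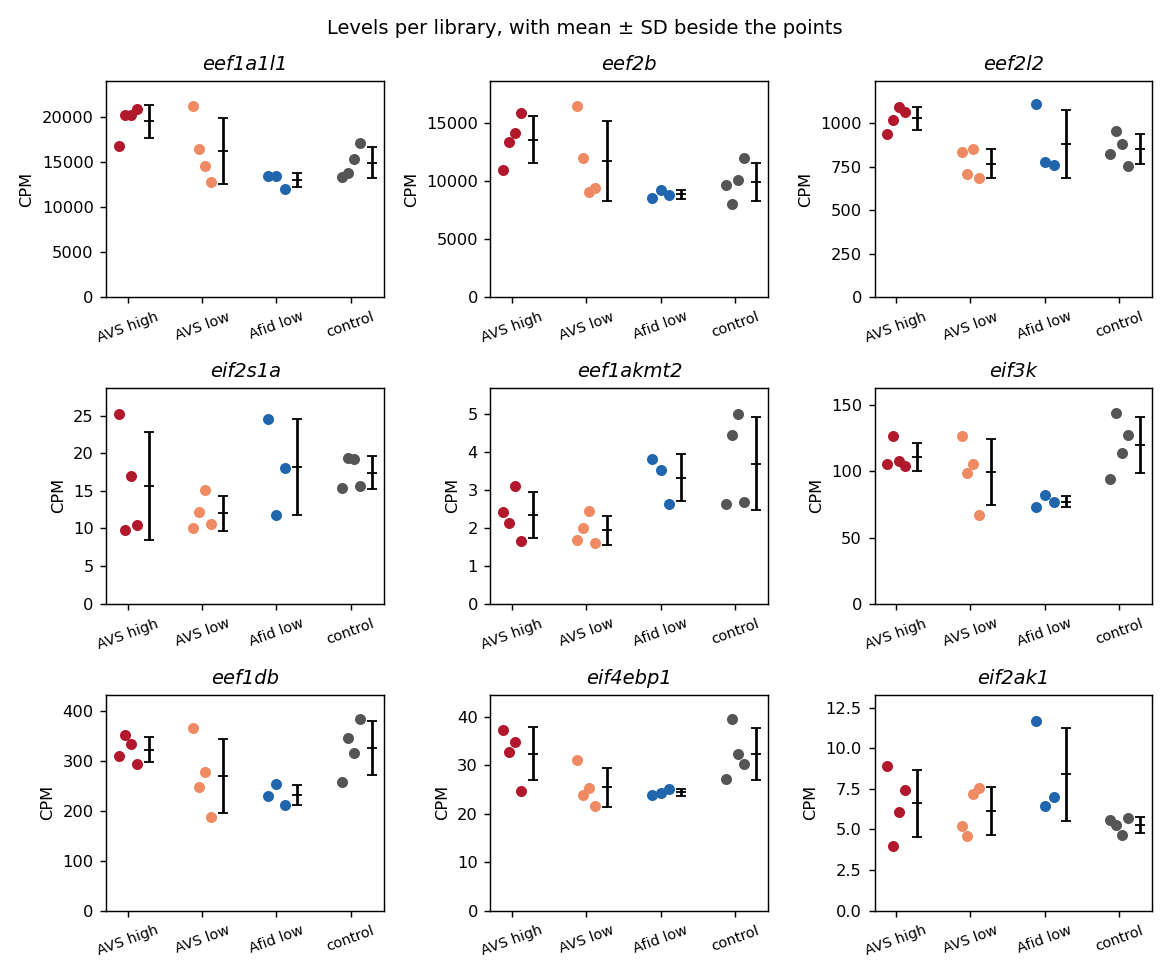
CPM per library of 9 translation factor genes in AVS high, AVS low, Afid low and control, with the group mean ± SD beside the points (n = 4, 4, 3 and 4). Afid low lies wholly below control for eif3k, eef1db and eif4ebp1 and wholly above it for eif2ak1, AVS low lies wholly below control for eif2s1a and eef1akmt2, and AVS high lies wholly above AVS low for eef2l2.

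Among the eIF2 genes the minor alpha subunit gene eif2s1a (ENSDARG00000005827, chromosome 17, 34244345 to 34254233) had the smallest p in AVS low. It had 10.1, 12.2, 15.1 and 10.6 CPM in AVS low, against 15.4, 19.4, 19.2 and 15.7 CPM in control. The groups touched but did not overlap, with AVS low replicate 4 just under control replicate 1, and the log2 fold change was -0.54 ± 0.20 (SE; unadjusted p = 0.017, adjusted p = 0.464 by edgeR). AVS high had 25.2, 9.75, 16.9 and 10.5 CPM of eif2s1a, so it held both the highest and the lowest of the 15 libraries (-0.16 ± 0.28, SE). The abundant alpha subunit gene eif2s1b differed less in AVS low, with 246, 168, 171 and 147 CPM in AVS low and 182, 219, 183 and 193 CPM in control (-0.09 ± 0.18, SE). The gamma subunit gene eif2s3 had log2 fold changes of 0.11 ± 0.17, -0.14 ± 0.20 and -0.30 ± 0.18 (SE) in AVS high, AVS low and Afid low against control.

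The gene eif2d, whose product can place initiator tRNA without eIF2 and acts in ribosome recycling, had 5.63, 6.88, 8.02 and 7.28 CPM in AVS low, against 10.5, 11.2, 10.8 and 8.81 CPM in control. All AVS low libraries were below all control libraries, at a log2 fold change of -0.57 ± 0.21 (SE; unadjusted p = 0.0183, adjusted p = 0.464 by edgeR). All 6 genes of the eIF2 group had fold changes below 0 in AVS low against control, from -0.57 (eif2d) to -0.02 (eif2a), and above 0 in AVS high against AVS low, from 0.21 (eif2d) to 0.38 (eif2s1a). In AVS high against control 3 were above 0 and 3 below. Under alternative settings eif2a rose above 0 in AVS low against control in 5 of 15 and eif2s3 in 1 of 15. For AVS high against AVS low, eif2d fell below 0 in 1 of 14.

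Of the eIF2B genes, 3 of 3 had fold changes above 0 in AVS high, 2 of 3 in AVS low and 1 of 3 in Afid low, each against control. The Afid low count was 0 of 3 with DESeq2, with DESeq2's scaling in edgeR, without the count filter and in 1 fit of all 15 libraries. The epsilon subunit gene eif2b5 had 48.0 ± 4.34 CPM in Afid low (SD, n = 3) and 48.3 ± 2.15 CPM in control (SD, n = 4). The delta subunit gene eif2b4 had 95.3, 88.7, 108 and 93.0 CPM in AVS high, against 80.0, 71.6, 85.3 and 71.1 CPM in AVS low. AVS high lay wholly above AVS low, at a log2 fold change of 0.32 ± 0.13 (SE; unadjusted p = 0.0239, adjusted p = 0.893 by edgeR), while control, at 82.5 to 101 CPM, overlapped both (-0.24 ± 0.14 in AVS low against control, SE; unadjusted p = 0.110, adjusted p = 0.547 by edgeR). The gamma subunit gene eif2b3 had 21.8, 22.2, 24.1 and 22.8 CPM in AVS high, against 16.7, 19.9, 16.8 and 19.1 CPM in control. AVS high lay wholly above control (0.33 ± 0.16, SE; unadjusted p = 0.0583, adjusted p = 0.584 by edgeR).

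The 3 eIF2 kinase genes among the members had fold changes above 0 in all 3 comparisons with control analysed from counts. The heme-regulated kinase gene eif2ak1 (ENSDARG00000093182, chromosome 12, 17591786 to 17602958) had 11.7, 6.46 and 7.0 CPM in Afid low, against 5.57, 5.25, 4.63 and 5.68 CPM in control. Afid low lay wholly above control, with replicate 1 far above the other 2, and the log2 fold change was 0.67 ± 0.27 (SE; unadjusted p = 0.0281, adjusted p = 0.688 by edgeR). Under 13 alternative settings it ran from 0.36 to 0.83. The endoplasmic reticulum kinase gene eif2ak3 was at 0.40 ± 0.24 in AVS high, 0.30 ± 0.25 in AVS low and 0.04 ± 0.21 in Afid low (SE). The interferon-linked kinase gene eif2ak2 was at 0.19 ± 0.39, 0.48 ± 0.37 and 0.46 ± 0.39 (SE) in the same order, from 1.64 to 5.00 CPM over the 15 libraries. Under alternative settings eif2ak3 fell below 0 in Afid low in 3 of 13, and eif2ak2 in AVS high in 1 of 14.

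Of the eIF3 genes, eif3k (ENSDARG00000068289, chromosome 15, 47845369 to 47848544), the smallest member gene at 801 bases, had the smallest p of all members. It had 73.1, 81.9 and 76.5 CPM in Afid low, against 94.0, 144, 114 and 127 CPM in control. All 3 Afid low libraries lay below all control libraries and close to each other, at a log2 fold change of -0.62 ± 0.17 (SE; unadjusted p = 0.0033, adjusted p = 0.688 by edgeR). The unadjusted p stayed under 0.05 in 13 of 13 alternative settings, where the fold change ran from -0.72 to -0.52. AVS high had 106, 126, 107 and 104 CPM of eif3k and AVS low 127, 99.0, 105 and 66.9 CPM, so AVS low replicate 5 was the lowest of the 15 libraries and both groups overlapped the control.

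A further 3 eIF3 genes had an unadjusted p under 0.05 in Afid low. The subunit gene eif3i had 320, 329 and 282 CPM in Afid low, against 346, 430, 423 and 454 CPM in control, without overlap (-0.40 ± 0.17, SE; adjusted p = 0.688 by edgeR). The subunit gene eif3g had 262, 201 and 192 CPM in Afid low and 239, 336, 266 and 383 CPM in control, where Afid low replicate 1 overlapped the control (-0.47 ± 0.20, SE). The subunit gene eif3ea had 205, 226 and 194 CPM in Afid low and 212, 269, 301 and 351 CPM in control, where Afid low replicate 2 overlapped control replicate 1 (-0.43 ± 0.19, SE). Of the 17 eIF3 genes 13 were below 0 in Afid low and 4 above, among these both eIF3j genes, with eif3jb at 0.45 ± 0.22 and eif3ja at 0.08 ± 0.24 (SE). In AVS low the split was also 13 below and 4 above, and there eif3jb (-0.34 ± 0.26, SE) and eif3ja (-0.46 ± 0.24, SE) were below.

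In AVS high 11 eIF3 genes were above 0 and 6 below. The gene eif3s6ip (eIF3l; ENSDARG00000101082, chromosome 13, 43223491 to 43238578) had 522, 587, 605 and 688 CPM in AVS high, against 436, 449, 480 and 524 CPM in control. The groups overlapped slightly, between AVS high replicate 1 and control replicate 4, and the log2 fold change was 0.35 ± 0.16 (SE; unadjusted p = 0.0463, adjusted p = 0.567 by edgeR). The large subunit gene eif3c had 890, 920, 930 and 1015 CPM in AVS high, against 835, 747, 856 and 837 CPM in control. Those groups did not overlap, though the log2 fold change was small (0.20 ± 0.15, SE; adjusted p = 0.707 by edgeR). At the other end, eif3s10 had the steadiest level, with -0.02 ± 0.16, 0.04 ± 0.17 and 0.05 ± 0.17 (SE) in AVS high, AVS low and Afid low.

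The eIF4G scaffold genes had fold changes above 0 in both atorvastatin groups against control, 5 of 5 in each. Under alternative settings eif4g3a fell below 0 in 3 of 14 in AVS high and in 3 of 15 in AVS low. The most abundant, eif4g2b (a DAP5-type scaffold that does not bind eIF4E), had 286, 260, 285 and 314 CPM in AVS high and 265, 267, 254 and 277 CPM in AVS low, against 252, 237, 253 and 238 CPM in control. Every atorvastatin library was above every control library, though AVS low replicate 4 only just, with log2 fold changes of 0.23 ± 0.14 in AVS high and 0.12 ± 0.14 in AVS low (SE; adjusted p = 0.644 and 0.772 by edgeR). The gene eif4g1a had 0.22 ± 0.17 in AVS high and 0.33 ± 0.18 in AVS low (SE), and control replicate 2 held its lowest level, 153 CPM.

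The helicase gene eif4a3 had 101, 105 and 91.8 CPM in Afid low, against 111, 141, 128 and 154 CPM in control. The Afid low libraries all lay below the control libraries, at a log2 fold change of -0.41 ± 0.16 (SE; unadjusted p = 0.0228, adjusted p = 0.688 by edgeR). The initiation helicase genes eif4a1a and eif4a2 stood at -0.18 ± 0.20 and -0.19 ± 0.15 (SE) in Afid low. Between the atorvastatin groups eif4a2 had 113, 116, 96.4 and 120 CPM in AVS high and 106, 85.9, 83.8 and 84.7 CPM in AVS low, where AVS low replicate 1 stood with AVS high (0.31 ± 0.14, SE; unadjusted p = 0.0425, adjusted p = 0.903 by edgeR). The helicase cofactors eif4h, eif4bb and eif4ba ran from -0.25 to 0.25 on the log2 scale over the 3 comparisons with control.

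The cap-binding genes were low and scattered. In AVS high 4 of 5 eIF4E genes were below 0 (5 of 5 by limma-voom), in AVS low 4 of 5, and in Afid low 1 of 5. The most abundant, eif4e3, had 40.4, 38.9, 45.8 and 47.3 CPM in AVS low, against 49.2, 53.3, 50.5 and 48.8 CPM in control. Those groups did not overlap, with a log2 fold change of -0.23 ± 0.14 (SE; unadjusted p = 0.129, adjusted p = 0.568 by edgeR). The canonical genes eif4ea and eif4eb had 3.82 ± 1.59 and 1.43 ± 0.798 CPM (SD, n = 15), and their fold changes had SEs of 0.34 to 0.69 over the 4 comparisons.

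The 4E-BP genes had fold changes below 0 in both low groups, except for eif4ebp2 in Afid low. Under alternative settings eif4ebp2 also rose above 0 in AVS low, in 2 of 15. The gene eif4ebp1 (ENSDARG00000043608, chromosome 21, 21013147 to 21020708) had 23.8, 24.2 and 25 CPM in Afid low, against 27.1, 39.6, 32.3 and 30.2 CPM in control. Afid low was tight and wholly below control, at a log2 fold change of -0.39 ± 0.17 (SE; unadjusted p = 0.0367, adjusted p = 0.688 by edgeR). In AVS low eif4ebp1 had 31.1, 23.8, 25.3 and 21.6 CPM, with replicate 1 inside the control range (-0.34 ± 0.18, SE), and in AVS high it had 37.3, 32.6, 34.7 and 24.6 CPM, on both sides of the control mean. The related gene eif4ebp3 was at -0.50 ± 0.25 in Afid low and -0.36 ± 0.20 in AVS low (SE), and eif4ebp2 was at 0.17 ± 0.19 and -0.05 ± 0.16 (SE). Counting the eIF4E carrier eif4enif1 with them, 4 of 5 genes were above 0 in AVS high, 0 of 5 in AVS low and 1 of 5 in Afid low. The AVS high count was 3 of 5 by limma-voom, without the count filter and in 1 fit of all 15 libraries.

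Of the factors of start codon choice and subunit joining, the GTPase activator gene eif5 had 351, 321, 334 and 379 CPM in AVS high and 247, 252 and 254 CPM in Afid low, against 269, 283, 300 and 304 CPM in control. AVS high lay wholly above and Afid low wholly below control, with log2 fold changes of 0.26 ± 0.14 and -0.19 ± 0.15 (SE; adjusted p = 0.620 and 0.769 by edgeR). The subunit joining gene eif5b ran from 57.9 to 82.2 CPM over the 15 libraries, with 0.12, 0.06 and 0.10 on the log2 scale in AVS high, AVS low and Afid low. The scanning factor eif1b was at 0.09 ± 0.17, -0.04 ± 0.20 and -0.33 ± 0.19 (SE) in the same order. The gene eif5a had 1718 ± 195 CPM in AVS high, 1486 ± 233 CPM in AVS low and 1232 ± 117 CPM in Afid low, against 1496 ± 324 CPM in control (SD, n = 4, 4, 3 and 4), and its groups overlapped except for AVS high and Afid low, which were not tested against each other.

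The large-subunit factor eif6, which keeps the ribosomal subunits apart and takes part in making the large one, had 39.5, 32.5, 50.2 and 30.8 CPM in AVS low, against 49.6, 54.1, 51.1 and 45.4 CPM in control. AVS low replicate 4 lay within the control range and the other 3 below it, at a log2 fold change of -0.39 ± 0.18 (SE; unadjusted p = 0.0469, adjusted p = 0.492 by edgeR). The unadjusted p was under 0.05 in only 2 of 15 alternative settings. In AVS high and Afid low eif6 stood at -0.07 ± 0.17 and -0.03 ± 0.17 (SE).

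For Afid high only the authors' deposited table was used, which gives no error and for which values per library were not analysed here. Of the 73 members tested elsewhere, 55 lie below 0 (background 46.9% of rows) and 18 above (background 53.1%) in the authors' deposited table, with a median of -0.17 beside 0.010 over the 20371 gene symbols tested in another comparison. The authors' deposited table has 12 members lower at an unadjusted p under 0.05 (background 4.61% of symbols tested elsewhere, 3.74% of all rows) and 2 higher (background 3.45% and 3.30%). Among those lower, the authors' deposited table lists eif4a3 (-0.41, unadjusted p = 0.00709, adjusted p = 0.146), eif3f (-0.48), eef1db (-0.37), eif3i (-0.31), eif3g (-0.39) and eif3k (-0.34). Both genes listed higher in the authors' deposited table are kinase genes, eif2ak1 (0.57, unadjusted p = 0.0227) and eif2ak2 (0.77, unadjusted p = 0.0269). Both afidopyropen groups are set against the same control libraries: for eif3k the authors' deposited tables give -0.34 in Afid high and -0.64 in Afid low, and for eif2ak1 they give 0.57 in Afid high and 0.66 in Afid low. The authors' deposited table writes an adjusted p of 1 for 36 members, which was read as not given. Both kinase genes are among these members, and 89.2% of the 25853 rows are written in this way.

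The other genes of protein synthesis were counted from lists. Of 76 tested ribosomal protein genes 55 were below 0 in AVS high (median log2 fold change -0.19), 73 in AVS low (-0.41) and 74 in Afid low (-0.57), each against control, and 0 were called by edgeR. In AVS high the medians of the ribosomal proteins (-0.19) and of the translation factors (0.11) thus had opposite signs. In AVS low and Afid low both medians were below 0. The ribosomal protein score, computed as for the erythrocyte markers, was -0.01, 0.21, 0.52 and -0.18 in AVS high replicates 1 to 4. Control replicates 1 to 4 scored -0.20, 0.32, 0.02 and 0.77, so these groups overlapped. The sign of the ribosomal protein median in AVS high may rest on control replicate 4, which was not tested. Of 17 tested genes of termination, recycling and poly(A) binding 7 were above 0 in AVS high (median -0.05), 6 in AVS low (-0.24) and 3 in Afid low (-0.17). Among these pabpc4, a poly(A)-binding protein, had 20.5 CPM in AVS low and 35.8 CPM in control on average (-0.80 ± 0.25, SE; adjusted p = 0.464 by edgeR), and the ribosome recycling factor abce1 was at 0.35 ± 0.14 in AVS high (SE; adjusted p = 0.532 by edgeR).

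Regulators upstream and targets downstream of the factors were counted in the same way. Of 23 tested targets of the integrated stress response, the program that eIF2 phosphorylation starts, 11 were above 0 in AVS high (median -0.04), 9 in AVS low (-0.04) and 6 in Afid low (-0.08), and 0 were called by edgeR. The transcription factor ddit3, a late target of that program, stood at 22 CPM in AVS high and 41.8 CPM in control on average (-0.92 ± 0.35, SE; adjusted p = 0.511 by edgeR). Another listed gene, atf4a, went the other way, with 539 CPM in AVS high and 431 CPM in control (0.32 ± 0.15, SE; adjusted p = 0.576 by edgeR). The list made for the mTORC1 pathway also held genes from outside it, namely pdk4, mknk1, mknk2a and mknk2b. Of the 21 tested genes of that list 13 were above 0 in AVS high (median 0.04), 12 in AVS low (0.06) and 12 in Afid low (0.02), with 0 called by edgeR. The pathway's mRNA-binding repressor larp1, which holds pyrimidine-tract mRNAs, stood at 144 CPM in AVS high and 103 CPM in control (0.49 ± 0.16, SE; adjusted p = 0.444 by edgeR). For aminoacyl-tRNA synthetases only 4 of 24 listed symbols were tested, and of the genes of hypusine synthesis 1 of 2, so these lists say little.

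Gene length went along with the members' fold changes. The 37 shorter and the 36 longer members, parted at a median length of 2165 bases, had medians of 0.0032 and 0.17 in AVS high, -0.21 and 0.02 in AVS low and -0.19 and -0.11 in Afid low, each against control. All genes of the same short and long ranges had medians of -0.05 and 0.03, -0.09 and 0.04, and -0.05 and 0.03. With the trend over gene length removed, the median over the members was 0.14 in AVS high, -0.11 in AVS low, -0.19 in Afid low and 0.24 for AVS high against AVS low. The part of gene length in the fold changes of single members was not tested.

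**Figure D5:**
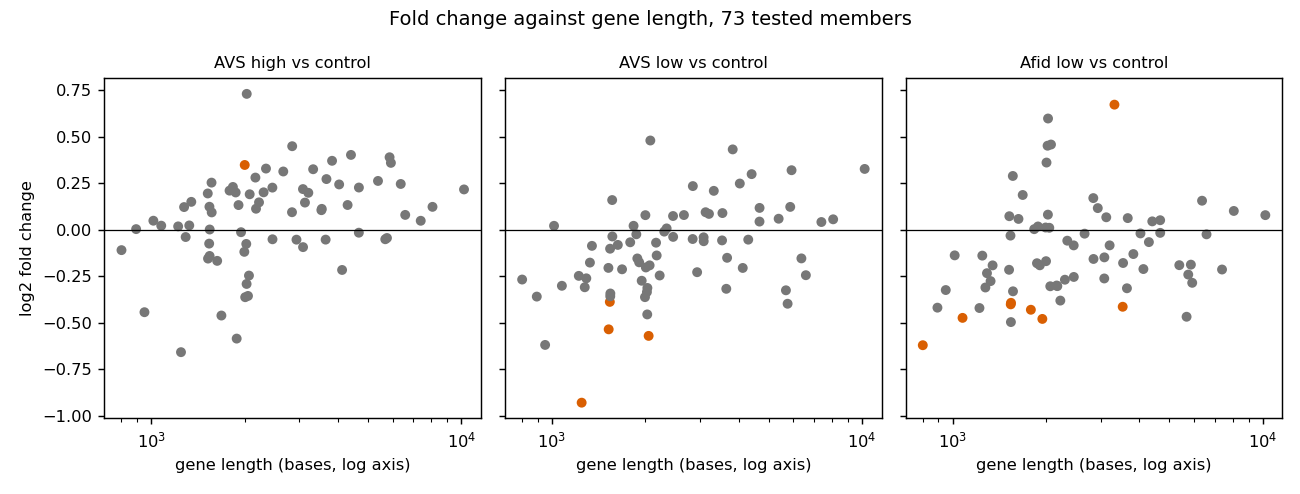
Log2 fold change against gene length in bases (log axis) for the 73 tested members, in 3 panels that set AVS high, AVS low and Afid low against control, with members of unadjusted p under 0.05 in orange. Members under about 1000 bases lie mostly below 0 in all 3 panels, and the shorter members have medians of 0.0032, -0.21 and -0.19 beside 0.17, 0.02 and -0.11 for the longer ones.

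Single libraries set many of the extreme values. AVS low replicate 5 was the lowest of the 15 libraries for 24 of 73 members (32.9%, beside 6.30% of all tested genes) and Afid low replicate 4 for 11 (15.1%, beside 5.35%). AVS high replicate 3 was the highest for 14 members (19.2%, beside 8.29%), AVS high replicate 4 for 11 (15.1%, beside 8.83%) and AVS low replicate 1 for 10 (13.7%, beside 8.49%). AVS low thus held a library at each end. Marker genes of other tissues also differed between groups, with 15 of 15 lens markers and 14 of 14 tested exocrine pancreas markers above 0 in AVS high against control (medians 0.56 and 0.84), 4 of 5 tested erythrocyte markers of 9 listed above 0 there (median 0.61), and 12 of 15 muscle markers and 16 of 17 neuron markers below 0 in AVS low against control (medians -0.25 and -0.28). Except for the muscle markers, of which 9 of 15 were above 0 in AVS high, these directions were not particular to the groups named. Against control, lens markers above 0 were 14 of 15 in AVS low and 13 of 15 in Afid low. Pancreas markers above 0 were 13 of 14 and 10 of 14, and erythrocyte markers 3 of 5 in each. Neuron markers below 0 were 14 of 17 in both AVS high and Afid low, and muscle markers 6 of 15 and 10 of 15. Liver markers above 0 against control were 12 of 15 in AVS high, 8 of 15 in AVS low and 5 of 15 in Afid low. The pancreas score, computed as for the erythrocyte markers, ran from -0.51 to 1.2 in AVS high and from -2.20 to 0.46 in control, and the lens score from -0.22 to 0.66 in AVS high and from -0.78 to 0.41 in control. The muscle score ran from -0.55 to 0.34 in AVS low and from -0.37 to 0.20 in control, and the neuron score from -0.30 to 0.06 in AVS low and from -0.18 to 0.49 in control. Their part in the members' values was not tested.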

How the data were processed

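Messenger RNA of whole larvae was selected on poly-T beads and made into directional libraries, per the labels' protocols. The submitters' processing notes name fastp, HISAT2, featureCounts and DESeq2. No version, genome build or strand setting is given in the sources used here. The deposited tables give whole-number read counts per gene and library for AVS high, AVS low, Afid low and control, and the authors' log2 fold changes and p-values for these and for Afid high. The control counts were the same in all 3 count tables (0 genes differed). A further 46 columns of normalized values and 6 of group means were not used, and counts per library of Afid high were not analysed here.

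Each exposed group was tested against control within its deposited table with edgeR 4.0.16 (quasi-likelihood, TMM scaling, filterByExpr, Benjamini-Hochberg adjustment over all genes tested, threshold 0.05) in R 4.3.3. AVS high against AVS low was tested in 1 fit of the 15 libraries. SEs were derived from each log2 fold change and its quasi-likelihood F statistic, as the absolute change over root F. Genes tested varied from 18929 to 20144. Depth was 13.1 ± 2.90 M reads in genes per library (SD, n = 15). Non-members' scores are medians of centred log2 CPM. Alternatives were DESeq2 1.42.0, limma-voom 3.58.1, DESeq2's scaling, no filter, leaving out each library, the replicate number as a block, and wider or narrower member rules. The fold changes of edgeR were checked on simulated data with planted changes larger than nearly all of the members' own. How often changes of the members' size would be called was not checked.

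The members and lists were chosen with earlier results of these data known. Named are, by rule, the 8 members of smallest p in each comparison, the 12 most abundant, the tested elongation factors, eIF2 kinases, eIF5A, eIF4E and 4E-BP genes, and the extremes of every other role, 68 in all; eif2s1b, eif2s2, eif3eb and the 4 members under the filter were added after their values were seen.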

Additional observations from a re-analysis of the deposited data

Results flagged for a closer look

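Within the groups of 4 libraries, 10 of 213 sets of values (68 genes and 3 shares of reads, in each of 3 groups) held a library far from the other 3, all of them CPM values. Chance alone gives about 5% of such sets, or 10.65. In AVS high, replicate 1 had 16819 CPM of eef1a1l1, where the other 3 libraries had 20204 to 20890, and this is the library that overlapped the control. The same library had 9.15 CPM of eif1axa, an eIF1A gene, where the others had 1.36 to 1.52, and 52.3 CPM of eif4e3, where the others had 46.8 to 47.6. The log2 fold change of eif1axa in AVS high against control was -0.44 with all libraries. With single libraries left out it ran from -1.67 (without AVS high replicate 1) to -0.16 (without control replicate 3). AVS high replicate 2 had 126 CPM of eif3k, where the others had 104 to 107, and AVS high replicate 3 had 71.4 CPM of eif4h, where the others had 53.4 to 56.0.

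In AVS low, replicate 1 had 106 CPM of eif4a2, where the other 3 libraries had 83.8 to 85.9, and 15.6 CPM of eif4e2rs1, where the others had 11.4 to 12.1. AVS low replicate 4 had 14.5 CPM of eif4ba, where the others had 9.20 to 9.98. In control, replicate 2 had 238 CPM of eef1a1a, where the others had 155 to 164, and replicate 1 had 192 CPM of eif4ebp2, where the others had 251 to 263.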

How the results depend on the processing

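The count of called members was 0 under every alternative run. Leaving out 1 library at a time gave 0 called members each time and medians against control of 0.05 to 0.13 for AVS high, -0.18 to -0.03 for AVS low and -0.21 to -0.09 for Afid low, and of 0.13 to 0.27 for AVS high against AVS low, and the members below 0 numbered 23 to 32, 40 to 54, 49 to 58 and 9 to 16. The AVS low median was 0.0077, above 0, with control replicate 4 and AVS low replicate 5 left out together, an alternative chosen after seeing the data; the cause was not tested. Equal replicate numbers were not taken as pairs, since the correlations of their deviations ran from -0.256 to 0.134. The runs with the replicate number as a block kept only the 2 groups compared and the replicate numbers they share. For AVS high against AVS low this left out AVS high replicate 3, AVS low replicate 5 and all control and Afid low libraries. There 21 members were below 0, against 13 in the fit of 15 libraries without the block, and 0 members were called. Against control, AVS low lost its replicate 5, and AVS low and Afid low were compared without control replicate 3. The block and the libraries left out cannot be told apart. Counts at an unadjusted p under 0.05 with the block were 0, 0, 1 and 0 in the same 4 comparisons. With mitochondrial and ribosomal protein reads left out of the total, the mean share of reads in members was 5.49% in AVS high, 4.98% in AVS low and 4.48% in Afid low, against 4.76% in control. The unadjusted count moved by over 1.5 times in 31 of 64 alternatives. Genes with an unadjusted p under 0.05 in a comparison by edgeR kept it in differing numbers of alternatives. These were 2 of 15 for eif6, 5 of 14 for eif4a2, 6 of 14 for eif3s6ip and 7 of 13 for eif3g, eif3ea and eif4ebp1. They were 8 of 13 for eif3i, 9 of 14 for eif2b4 and 10 of 13 for eif2ak1 and eif4a3. The rest ranged from 11 of 15 (eif2s1a) to 13 of 13 (eif3k). DESeq2 gave 4, 4, 9 and 6 members at an unadjusted p under 0.05 in the 4 comparisons, limma-voom 3, 4, 8 and 5, and edgeR 1, 4, 8 and 3. DESeq2 was run without the count filter and so also covered members that edgeR did not test, and equal counts need not be the same members. For unadjusted counts the share over all genes was not computed in any alternative run. At this depth and number of libraries the median SE of a single member's log2 fold change was 0.18 to 0.20.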
